A study of Saccharomyces cerevisiae with 9 samples.

Results

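The genes described here are those of the large subunit of the cytosolic ribosome in *Saccharomyces cerevisiae*, taken as every row of the count table whose RefSeq standard name is RPL followed by digits and an optional A or B. RefSeq assembly R64 lists 76 such genes in 43 protein families, and 74 of them were among the 6357 rows of the table. RPL41A and RPL41B were not analysed here. Of the 74 genes, 10 have no paralog and 64 form 32 pairs of an A and a B copy. All 74 passed the filter on low counts.

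Total RNA was sequenced from CAT-1, a strain of the Brazilian fuel-ethanol industry, in 9 libraries: 3 labelled control, 3 labelled anti-foam and titled Ind_B, and 3 labelled anti-foam and titled Ind_Z. All 9 cultures had been recycled through 5 fed-batch fermentations on molasses with an acid treatment between cycles, and all were sampled 4 hours into the fifth. The labels do not say which agent or dose stands behind Ind_B or Ind_Z, and they do not say whether the libraries of a group came from separate fermenters, so p-values measure the spread between these libraries, which may be technical. Levels are CPM, the count of a gene as a rate per library after TMM scaling of library sizes, differences between groups are log2 changes ± SE, and a gene is called where edgeR's quasi-likelihood test over all 6137 genes tested gives a Benjamini-Hochberg adjusted p under 0.05.

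The large subunit joins amino acids into protein and holds the tunnel through which the new chain leaves. In yeast its protein genes are among the most heavily transcribed in growing cells. They are switched as one regulon with the genes of the small subunit, through the promoter-binding factors Rap1, Fhl1, Ifh1 and Sfp1 under the control of nutrient signalling. Most of the families kept both copies from the ancient duplication of the yeast genome, and the copies encode nearly the same protein.

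How far a count can be assigned to 1 copy depends on the coding sequence. RPL35A and RPL35B, proteins at the tunnel exit, and RPL43A and RPL43B, zinc-binding proteins, are shown as a pair of nearly identical copies and a pair that can be told apart. The first 300 bases of the RPL35 coding sequences and the whole RPL43 coding sequences (RefSeq R64, 5′ to 3′, introns removed) are given with the bases that differ from the paralog in capitals.

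RPL35A: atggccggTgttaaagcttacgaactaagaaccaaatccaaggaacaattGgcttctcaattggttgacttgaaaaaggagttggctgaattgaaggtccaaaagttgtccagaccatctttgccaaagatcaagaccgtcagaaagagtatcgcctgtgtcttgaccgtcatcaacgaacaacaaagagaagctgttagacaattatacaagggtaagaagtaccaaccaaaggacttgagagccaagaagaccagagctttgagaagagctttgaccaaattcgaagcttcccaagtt
RPL35B: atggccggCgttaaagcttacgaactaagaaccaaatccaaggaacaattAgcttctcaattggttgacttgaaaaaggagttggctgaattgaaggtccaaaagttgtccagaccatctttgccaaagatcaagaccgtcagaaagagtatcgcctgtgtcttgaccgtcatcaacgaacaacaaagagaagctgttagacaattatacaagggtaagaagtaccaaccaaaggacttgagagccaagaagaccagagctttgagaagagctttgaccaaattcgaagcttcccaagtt
RPL43A: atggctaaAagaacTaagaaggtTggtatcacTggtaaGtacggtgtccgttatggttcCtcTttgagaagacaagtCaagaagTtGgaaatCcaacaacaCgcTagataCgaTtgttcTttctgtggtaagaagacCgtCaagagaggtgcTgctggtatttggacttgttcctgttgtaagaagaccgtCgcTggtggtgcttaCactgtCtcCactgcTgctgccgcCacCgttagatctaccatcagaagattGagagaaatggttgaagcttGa
RPL43B: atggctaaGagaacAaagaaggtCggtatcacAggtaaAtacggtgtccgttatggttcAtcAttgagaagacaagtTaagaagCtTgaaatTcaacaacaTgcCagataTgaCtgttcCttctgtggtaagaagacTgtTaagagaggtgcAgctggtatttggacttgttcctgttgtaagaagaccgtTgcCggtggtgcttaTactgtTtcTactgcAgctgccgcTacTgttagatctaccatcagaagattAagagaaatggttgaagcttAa

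The coding spans are chrIV:117664-118517, plus strand, for RPL35A, chrIV:217600-218367, plus strand, for RPL35B, chrXVI:654166-654847, plus strand, for RPL43A and chrX:608305-608858, plus strand, for RPL43B. The RPL35 copies differ at 3 of 363 bases, 2 of them in the stretch shown, and the RPL43 copies at 29 of 279. For every coding sequence, windows of 50 bases were looked up in all other coding sequences of R64. In RPL35, 80.6% of the windows of each copy were found elsewhere, and in RPL43 none was. Among the 74 genes, 10 shared more than 50% of their windows with another gene, namely both copies of RPL1, RPL4, RPL7, RPL11 and RPL35, and their split between copies is uncertain. In 26 genes, among them the 10 without a paralog, no window was shared. The sources used here do not state the read length or how reads that map to more than 1 place were counted. How far the copies in CAT-1 differ from those of the reference strain was not examined. RPL7A and RPL7B were the members whose coding span overlapped another R64 gene, in each case a small nucleolar RNA gene inside an intron.

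The upstream sequences of 3 genes are shown because of their values described below: RPL28 and RPL9A were the members called between the 2 antifoam groups, and RPL15B was the member that did not follow the others. Each stretch is the 250 bases that end 200 bases before the start codon (RefSeq R64, 5′ to 3′ on the strand of the gene), with matches to ACCCNNACA, a core of the Rap1 binding motif, in capitals on either strand.

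RPL28: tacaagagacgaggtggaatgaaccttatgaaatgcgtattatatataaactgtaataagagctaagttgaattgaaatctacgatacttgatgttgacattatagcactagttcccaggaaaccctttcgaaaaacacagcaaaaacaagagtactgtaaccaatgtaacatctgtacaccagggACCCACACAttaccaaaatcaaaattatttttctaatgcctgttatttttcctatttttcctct
RPL9A: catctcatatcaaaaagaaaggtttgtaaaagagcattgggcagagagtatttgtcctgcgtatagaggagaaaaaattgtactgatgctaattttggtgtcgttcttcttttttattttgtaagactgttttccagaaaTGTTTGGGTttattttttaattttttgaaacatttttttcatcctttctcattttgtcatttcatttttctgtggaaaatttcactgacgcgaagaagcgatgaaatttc
RPL15B: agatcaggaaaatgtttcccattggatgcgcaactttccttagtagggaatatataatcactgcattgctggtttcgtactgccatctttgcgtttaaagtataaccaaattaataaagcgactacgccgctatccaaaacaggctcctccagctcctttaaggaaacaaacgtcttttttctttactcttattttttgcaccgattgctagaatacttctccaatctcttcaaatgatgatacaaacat

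Their positions are chrVII:310517-310766, plus strand, chrVII:228530-228779, minus strand, and chrXIII:510549-510798, minus strand. RPL28 and RPL9A each held 1 match and RPL15B held 0. RPL15A, whose stretch is not shown, also held 0, and its log2 change of Ind_Z against Ind_B was 1.15. Within the 500 bases before the start codon the motif was found on either strand in 34 of 74 RPL genes (45.9%) and in 328 of 6006 nuclear genes (5.5%). With 1 more C at its left end it was found in 17 of 74 (23%) and in 133 of 6006 (2.2%). A match is a description of these letters and not a measured site. RPL genes with a match and without one had about the same median log2 change between the antifoam groups, 1.00 for 34 genes and 1.02 for 40 genes.

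Total counts ran from 5900571 to 18245935 per library, and RPL genes had between 33 counts (RPL43A) and 29442 counts (RPL3) in a library. In 71 of the 74 genes every library held at least 100 counts, the exceptions being RPL22A, RPL36B and RPL43A. RPL genes took 1.55%, 1.57% and 2.17% of all counts in control1, control12 and control13. They took 1.59%, 1.27% and 1.45% in the Ind_B libraries and 2.34%, 2.6% and 2.46% in the Ind_Z libraries. The exact Clopper-Pearson 95% intervals of these shares reached at most 0.013 percentage points to either side and cover counting error only. The Ind_Z libraries held the 3 largest shares, and among the controls control13 stood apart from the other 2. It did so over all genes tested as well. The Spearman correlation of its log2 CPM was 0.956 with control1 and 0.954 with control12, which correlated at 0.9945 with each other. With the Ind_Z libraries it was higher, 0.965 to 0.967.

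In control13, 73 of the 74 genes were above both other controls, by a median of 1.94 times the mean of those 2. RPL28 was the exception, at 0.949 times. Across the 9 libraries control13 was the highest in CPM for 47 genes and Ind_B replicate 2 the lowest for 40. These orders and the ratio of 1.94 rest on the TMM factors, where a lower factor gives a higher CPM. The factor was 0.757 for control13, 1.06 and 1.08 for control1 and control12, and 0.927 to 0.959 for the Ind_Z libraries. In share of counts, without that scaling, control13 lay below every Ind_Z library. Because control13 stood apart, the medians and counts of RPL genes against control are given with and without it. It was picked by these same RPL levels, so the values without it are descriptions.

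**Figure D1:**
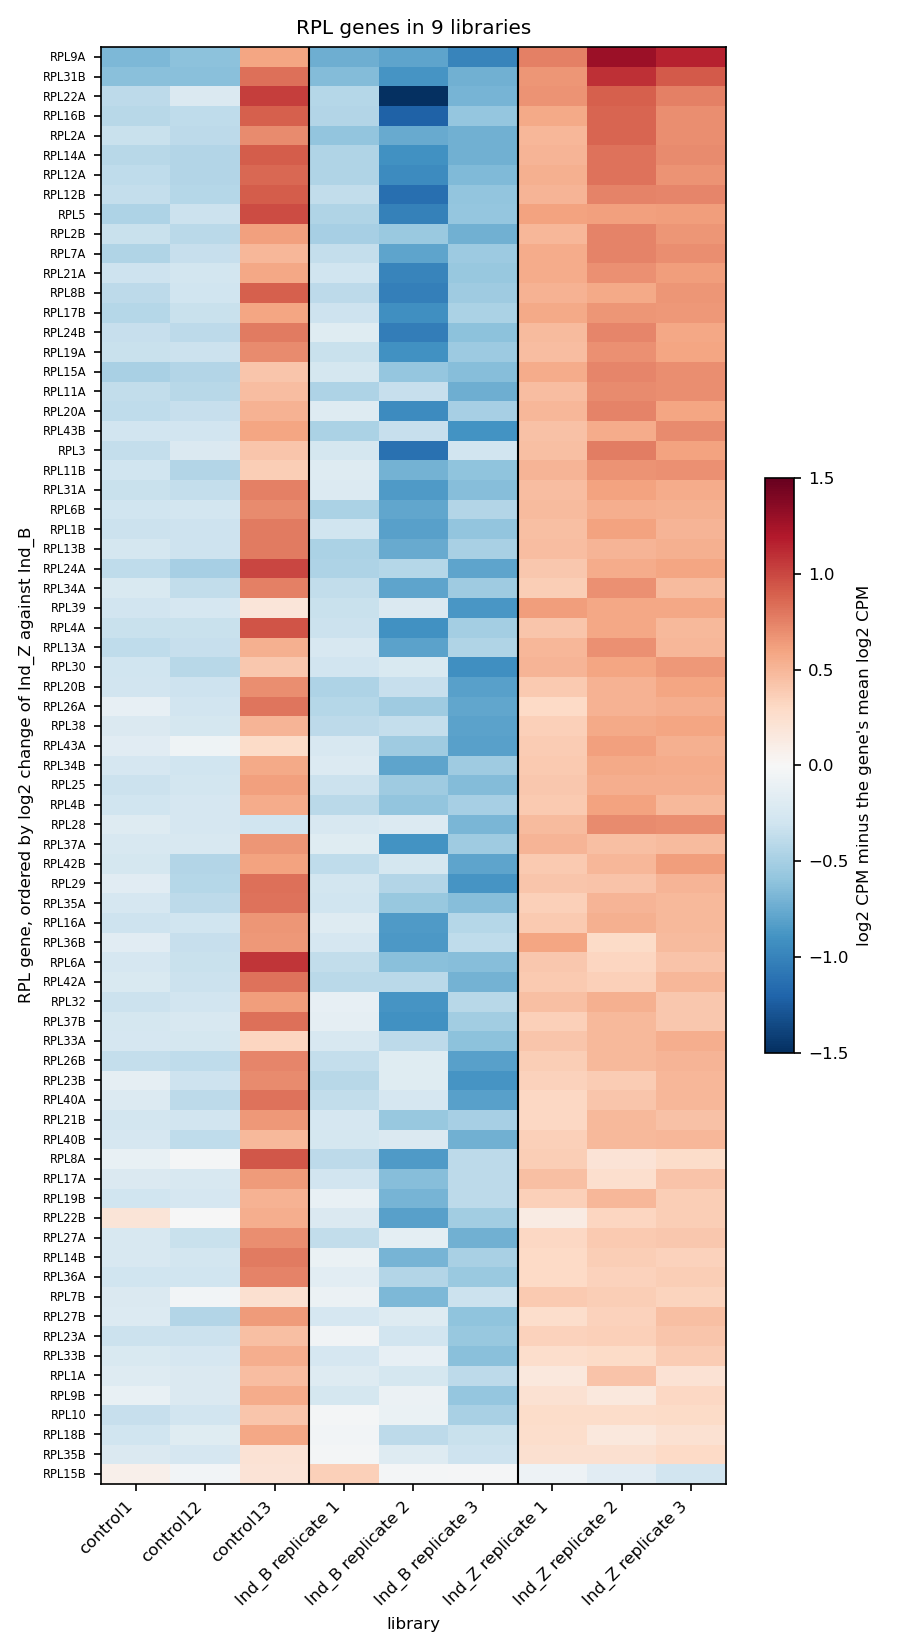
Heat map of 73 RPL genes (rows, ordered by the log2 change of Ind_Z against Ind_B) in the 9 libraries (columns), coloured by log2 CPM minus the mean of the gene over libraries. The Ind_Z columns and control13 are red for nearly every gene, control1, control12 and the Ind_B columns are blue, and RPL15B in the last row goes against the others.

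RPL genes were among the more abundant transcripts of these cells, with a median of 483 CPM per kb of coding length over the 9 libraries against 47 for the 5668 genes with a coding length. The median RPL gene lay at the 96.5th percentile of those genes. RPL10, whose protein joins the subunit last and is needed for its export from the nucleus, had the highest level at 1523 CPM per kb, followed by RPL3 (1375), a protein of the peptidyl transferase centre, and RPL25 (1289), part of the docking site for factors at the tunnel exit. None of these 3 has a paralog. RPL43A (20.5 CPM per kb), RPL15B (46.8) and RPL36B (49.1) had the lowest levels, and RPL43A stood at the 15.7th percentile of all genes.

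The 10 genes without a paralog had a median of 791 CPM per kb and the 64 paralogs a median of 435. Beyond RPL10, RPL3 and RPL25, the single-copy genes were RPL5 at 984 CPM per kb, RPL32 at 824, RPL38 at 757, RPL29 at 724, RPL30 at 716, RPL28 at 283 and RPL39 at 136. RPL39, which encodes a short protein of the tunnel wall, has a coding length of 156 bases, the shortest of the 74, and levels per kb of such short transcripts depend on the size of the sequenced fragments.

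**Figure D2:**
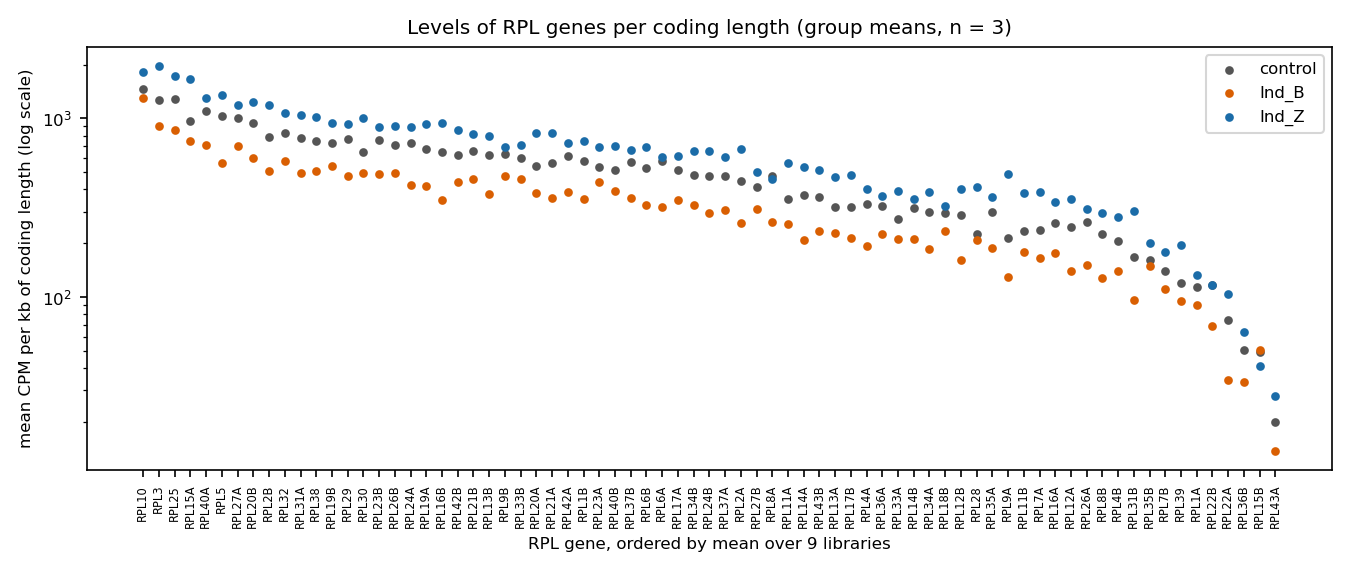
Mean level of 73 RPL genes in CPM per kb of coding length (log scale) in control, Ind_B and Ind_Z (n = 3 libraries each), ordered by the mean over 9 libraries. Levels run from 1523 for RPL10 down to 20.5 for RPL43A, and the Ind_Z point lies above the Ind_B point for 72 of the 73 genes shown.

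The comparison of Ind_Z with Ind_B asked how the 2 antifoam agents differed, and it held the widest separation. In 73 of 74 RPL genes all 3 Ind_Z libraries were above all 3 Ind_B libraries, against 21.4% of the 6137 genes tested, and RPL15B had all 3 below (21.5% of all genes). The median log2 change of the RPL genes was 1.01, a fold change of 2.01, and that of all genes was −0.03. 37 RPL genes were more than 2-fold and 68 at least 1.5-fold higher with Ind_Z. A CPM is relative to the TMM-scaled size of its library and not an absolute amount. In bulk RNA a change in every cell cannot be told apart from a change in the proportion of cells that express the genes strongly.

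RPL28 and RPL9A rose over all genes tested, 2 of 74 members against 0.358% of all genes called higher and 0.424% called in either direction. RPL28 encodes the protein in which mutations give resistance to cycloheximide. Its level was 105, 102 and 98.1 CPM in control1, control12 and control13, 102, 105 and 75.4 CPM in Ind_B, and 168, 197 and 195 CPM in Ind_Z, replicates 1 to 3 in order. The Ind_Z libraries lay above the other 6, while the control and Ind_B libraries overlapped. The log2 change of Ind_Z against Ind_B was 0.99 ± 0.14 (edgeR adjusted p = 0.0361).

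RPL9A encodes one copy of a protein near the base of the acidic stalk. It was at 83.2, 86.6 and 199 CPM in control1, control12 and control13, 79.4, 76.7 and 66.3 CPM in Ind_B, and 224, 323 and 295 CPM in Ind_Z, replicates 1 to 3 in order. All 3 Ind_Z libraries exceeded all the others, and control13 was the highest of the remaining 6. The log2 change against Ind_B was 1.92 ± 0.31, the largest of the 74 (edgeR adjusted p = 0.0441).

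RPL31B and RPL22A followed RPL9A in size without passing the test. RPL31B, a protein at the tunnel exit, was at 35.9, 36 and 98.7 CPM in the controls, 35.3, 30.1 and 33.8 CPM in Ind_B and 87.8, 119 and 106 CPM in Ind_Z (log2 change 1.65 ± 0.35, edgeR adjusted p = 0.0676). RPL22A was at 16.9, 19.1 and 45.8 CPM in the controls, 16.5, 7.24 and 13.7 CPM in Ind_B and 35.4, 41.4 and 37.4 CPM in Ind_Z (1.59 ± 0.38, edgeR adjusted p = 0.072). The Ind_B and Ind_Z libraries of these genes did not overlap. The lowest positive changes, neither of them called, were those of RPL35B (0.43 ± 0.14, a copy that shares reads) and RPL18B (0.46 ± 0.21), and RPL15B had −0.29 ± 0.14 (edgeR adjusted p = 0.227).

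Adjusted p was under 0.1 for 56 of the 74 genes in this comparison, and how many of all genes were under 0.1 was not counted. An unadjusted edgeR p under 0.05 was found for 71 of the 74 and for 1564 of all 6137 genes tested. The count of called members changed with the libraries in the fit and with the tool. Fitted on the 6 antifoam libraries alone, 73 RPL genes rose, against 13.1% of all genes, and without control13 in the fit 73 rose, against 14.2% of all genes. With control1 left out instead 15 rose, among 68 genes called higher, and with control12 left out 10 rose, among 41. DESeq2 on all 9 libraries called 63 higher, against 7.2% of all genes. RPL15B was called in none of these fits. Leaving out Ind_B replicate 1, 2 or 3, or Ind_Z replicate 2 or 3, ended both calls (0 members and 0 of all genes, with 62 to 71 members and 917 to 1417 genes at an unadjusted p under 0.05), and without Ind_Z replicate 1 edgeR called 1. The median log2 change stayed between 0.94 and 1.11 when any 1 of the 9 libraries was left out.

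**Figure D3:**
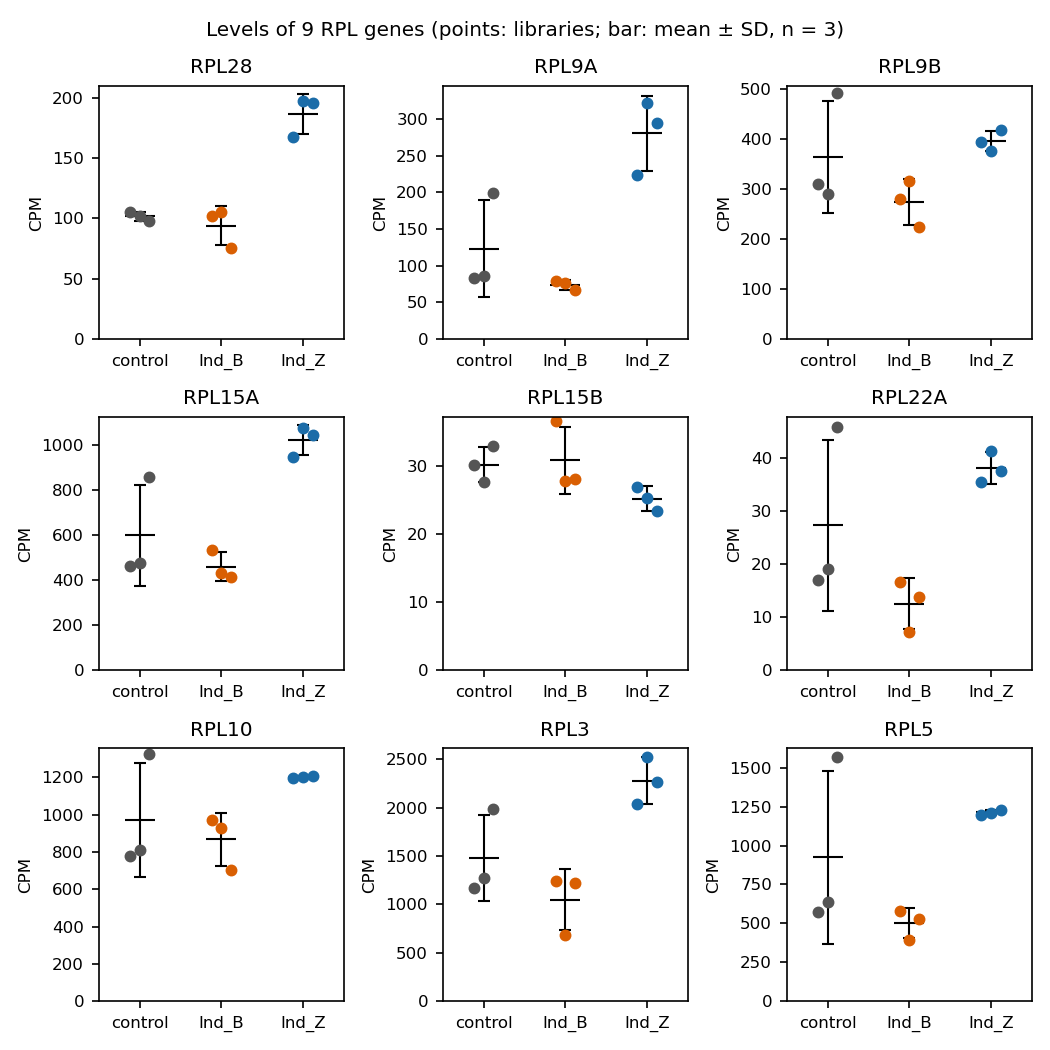
Level in CPM of 9 RPL genes in the 3 groups (points are libraries, bars are mean ± SD, n = 3, each axis starts at 0). The Ind_Z points lie above all Ind_B points in every panel except that of RPL15B, and control13 is the highest control point in every panel except that of RPL28.

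Against control, 1 RPL gene rose with Ind_Z over all genes tested, RPL28, with 2.13% of all genes called in either direction and 1.73% called higher. RPL28 changed by 0.88 ± 0.14 (edgeR adjusted p = 0.0159), or 0.85 without control13 (adjusted p = 0.0047), and its call ended without control1, Ind_Z replicate 2 or Ind_Z replicate 3 (adjusted p up to 0.108). The median change of the 74 genes was 0.39, with 72 above 0, and that of all genes was −0.03. In 12 genes, RPL3, RPL7A, RPL7B, RPL9A, RPL11B, RPL15A, RPL28, RPL30, RPL33A, RPL35B, RPL39 and RPL43A, all 3 Ind_Z libraries were above all 3 controls, against 13.5% of all genes, and RPL15B had all 3 below (12.6% of all genes). DESeq2 called 5 higher, against 4.81% of all genes, namely RPL9A, RPL11B, RPL15A, RPL28 and RPL39. In 48 genes control13 was above all 3 Ind_Z libraries.

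Without control13 the median was 0.80 and 69 RPL genes rose, against 13.1% of all genes. Leaving out control1 instead gave a median of 0.25, and 0 of the 19 genes called higher were RPL genes. Leaving out control12 gave 0.24, with 1 RPL gene among 130 called higher. The 5 RPL genes not called in the fit without control13 were RPL8A, RPL9B, RPL15B, RPL22B and RPL43A. In 72 of the 74 genes all 3 Ind_Z libraries were above both control1 and control12, the exceptions being RPL15B and RPL22B. The share of all genes that did so was not computed, and control13 was set aside by these same RPL levels. The count of 72 is therefore a description without a background. RPL9A changed by 1.20 ± 0.31 with all controls (edgeR adjusted p = 0.077) and by 1.73 without control13 (adjusted p = 0.000605). RPL31B changed by 0.90 ± 0.34 (adjusted p = 0.196) and by 1.53 without control13 (adjusted p = 0.000605). The lowest changes were those of RPL15B (−0.26 ± 0.14), RPL8A (−0.06 ± 0.26) and RPL22B (0.02 ± 0.18). Without control13 they stood at −0.19, 0.36 and 0.17.

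Against control, Ind_B changed no RPL gene by edgeR's test (0 of 74, with 0.147% of all genes called). DESeq2 called RPL8A and RPL22B lower (2 of 74, against 2.56% of all genes). In edgeR's fit 39 of the 74 RPL genes and 1170 of all 6137 genes tested had an unadjusted p under 0.05. The median change was −0.57, with 73 genes below 0, and the median of all genes was 0.01. Without control13 it was −0.20, with 70 below 0 and 0 called, where 0.583% of all genes were called lower. In that fit 9 of the 74 RPL genes and 827 of all 6178 genes tested had an unadjusted edgeR p under 0.05. Leaving out control1 or control12 instead gave RPL medians of −0.74 and −0.72. In 25 genes all 3 Ind_B libraries were below all 3 controls, against 9.21% of all genes, and in 0 were all 3 above (12% of all genes).

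The lowest p belonged to RPL22B, whose protein can hold back the splicing of its own transcript, at 41, 35.7 and 52.2 CPM in the controls, 30.7, 20.3 and 24.9 CPM in Ind_B and 38.9, 44.7 and 46.2 CPM in Ind_Z. The Ind_B libraries lay below all others. Its change was −0.75 ± 0.18 (edgeR adjusted p = 0.113) and −0.60 without control13. RPL22A (−1.05 ± 0.38), RPL5 (−0.88 ± 0.34) and RPL16B (−0.88 ± 0.34) had the lowest changes. Without control13 they stood at −0.50, −0.28 and −0.32. RPL28 (−0.12 ± 0.14), RPL35B (−0.10 ± 0.14) and RPL15B (0.03 ± 0.14) had the highest, and without control13 these were at −0.15, 0.05 and 0.08, so RPL35B changed sign.

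**Figure D4:**
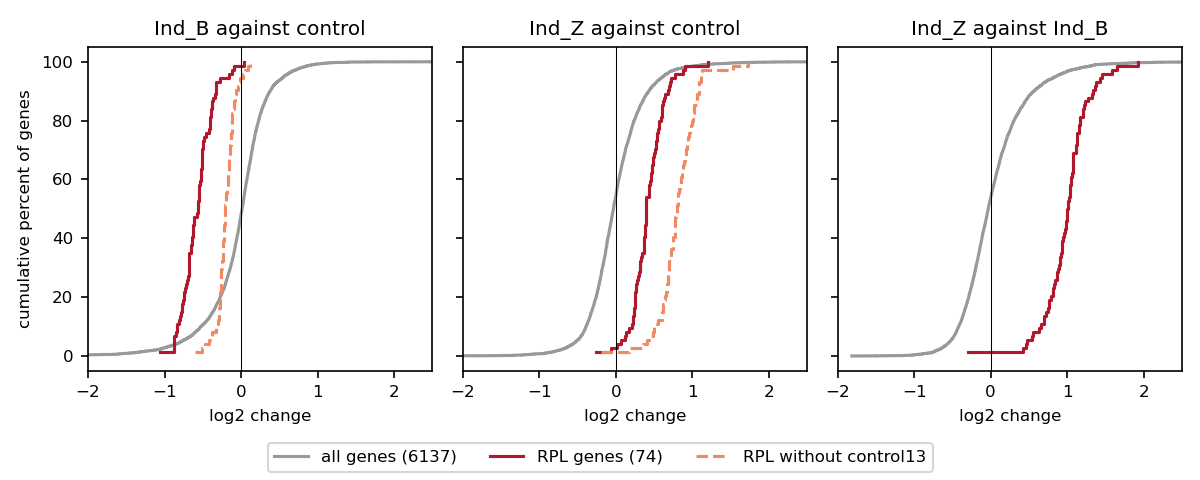
Cumulative percent of genes against log2 change for the 74 RPL genes (red), all 6137 genes tested (grey) and, in the comparisons with control, the RPL genes without control13 (dashed). The RPL medians are −0.57, 0.39 and 1.01 from left to right, and without control13 the first 2 are −0.20 and 0.80.

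Sorted by role in the subunit, the groups of RPL genes had similar changes between the antifoams, and every gene in these groups had a log2 change above 0 with Ind_Z. Differences between the groups were not tested. The 3 genes whose proteins enter the subunit with the small ribosomal RNA of the large subunit, RPL5, RPL11A and RPL11B, had a median of 1.13. RPL5 was at 574, 634 and 1568 CPM in the controls, 582, 394 and 528 CPM in Ind_B and 1200, 1212 and 1228 CPM in Ind_Z, so control13 exceeded every Ind_Z library. The 5 genes of the peptidyl transferase region, RPL2A, RPL2B, RPL3, RPL10 and RPL28, had a median of 1.12 with RPL28 the 1 called member. Within that group RPL10 changed by 0.47 ± 0.22 and RPL2A by 1.38 ± 0.27.

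RPL3 was at 1166, 1276 and 1984 CPM in the controls, 1243, 687 and 1216 CPM in Ind_B and 2042, 2525 and 2268 CPM in Ind_Z, and Ind_B replicate 2 was the lowest of the 9. RPL10 was at 779, 810.3 and 1325 CPM in the controls, 971, 927 and 706 CPM in Ind_B and 1198, 1204 and 1209 CPM in Ind_Z, with the Ind_Z libraries within 1% of each other. Its change between the antifoams, given above, was among the smaller ones of the 74.

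The 14 genes of the peptide tunnel and its exit (RPL4, RPL17, RPL19, RPL25, RPL26, RPL31, RPL35 and RPL39) had a median of 1.01, from 0.43 for RPL35B to 1.65 for RPL31B. RPL25 was at 417, 431 and 799 CPM in the controls, 417, 361 and 334 CPM in Ind_B and 694, 763 and 761 CPM in Ind_Z and RPL39 at 16.4, 16.9 and 22.7 CPM in the controls, 15.9, 17.3 and 10.9 CPM in Ind_B and 30.9, 30.1 and 30 CPM in Ind_Z. In RPL39 the Ind_Z libraries were above all controls, control13 included. The 4 stalk genes, RPL1A, RPL1B, RPL12A and RPL12B, had a median of 1.20, and the ubiquitin fusion genes RPL40A and RPL40B had 0.85. RPL29 (0.97 ± 0.29), RPL38 (1.02 ± 0.21) and RPL39 (1.05 ± 0.19), which encode small proteins that cells can live without, had changes near the median of all 74. RPL30, whose protein binds its own transcript, changed by 1.03 ± 0.24 and RPL32 by 0.90 ± 0.27.

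By gene structure, the 52 RPL genes with an intron in the coding sequence had a median of 0.99 for Ind_Z against Ind_B and the 22 without had 1.07. The 10 genes that share more than 50% of their windows had a median of 1.02, and the 26 that share none had 1.01.

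Paralogs of 1 family were often unequal in level. Over the 32 pairs the more abundant copy exceeded the other by a median of 1.73-fold in counts. The copies differed by more than 2-fold in 11 pairs and by less than 1.5-fold in 11, and the A copy was the higher in 14. In 26 pairs the same copy led in all 9 libraries, and the order changed in RPL6, RPL14, RPL19, RPL21, RPL23 and RPL42. R64 gives 11 of the pairs identical proteins.

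The most unequal pair was RPL15, in which RPL15A exceeded RPL15B by 22.4-fold. The A copy had 93.8, 94.5 and 96.3% in the controls, 93.6, 93.9 and 93.7% in Ind_B and 97.2, 97.7 and 97.8% in Ind_Z of the counts of the pair. RPL43B exceeded RPL43A by 17.2-fold, with an A share of 5.81, 6.18 and 4.37% in the controls, 6.26, 4.73 and 5.66% in Ind_B and 5.15, 5.55 and 4.76% in Ind_Z. These values do not rest on shared windows in RPL43, which had none. RPL36A led its copy by 6.21-fold, RPL1B by 4.74-fold, in a pair that shares reads, and RPL31A by 4.39-fold. The most equal pairs were RPL6 (1.05-fold), RPL42 (1.12), RPL19 (1.13), RPL21 (1.14) and RPL37 (1.14).

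Whether the balance of a pair differed between the 3 groups was tested on the log2 ratio of the 2 counts, which does not depend on library scaling. An exact permutation test over the 9 libraries was used. Its statistic was the spread between the 3 group means, which has no direction. P-values were adjusted over all 60 pairs of rows named with 1 stem plus A and B. These include the 32 RPL pairs, and all but COX5 and NHP6 are pairs of ribosomal protein genes. The smallest p this design allows is 0.00357. A single pair at it would have an adjusted p of 0.214, and at least 5 pairs with a p this low, or more pairs with a higher one, would be needed for any to pass, so this test could not call a pair on its own. No pair passed after Benjamini-Hochberg adjustment (0 of 32 RPL pairs and 0% of the 60), and 12 RPL pairs had an unadjusted exact permutation p under 0.05. Without control13, 7 of 32 RPL pairs passed (RPL8, RPL14, RPL15, RPL16, RPL19 and RPL35 among them), about the same share as the 21.7% of the 60 pairs. With any 1 other library left out 0 passed.

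RPL14 was at the smallest p the permutations can give (exact permutation p = 0.00357, adjusted p = 0.0857). RPL14A had 51.4, 51.5 and 56.5% in the controls, 48.4, 50.8 and 50.3% in Ind_B and 57.9, 61.8 and 60.6% in Ind_Z of its pair, so the Ind_Z libraries were above and the Ind_B libraries below all others. RPL15 and RPL21 followed (exact permutation p = 0.00714, adjusted p = 0.0857 for both). RPL21A had 46.1, 46.9 and 45.7% in the controls, 46, 39.6 and 45.6% in Ind_B and 51, 50.3 and 50.1% in Ind_Z, near an even split in Ind_Z.

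The copies of RPL15 had log2 changes of opposite sign, neither of them called. RPL15A was at 460.2, 475 and 857 CPM in control1, control12 and control13, 534, 429.6 and 414 CPM in Ind_B, and 947, 1073 and 1044 CPM in Ind_Z, replicates 1 to 3 in order. RPL15B was at 30.2, 27.6 and 32.9 CPM in control1, control12 and control13, 36.6, 27.9 and 28.1 CPM in Ind_B, and 27, 25.3 and 23.3 CPM in Ind_Z, replicates 1 to 3 in order. For RPL15A the Ind_Z libraries exceeded all others, and for RPL15B they were below all others. RPL15A changed by 1.15 ± 0.24 (edgeR adjusted p = 0.0676) and RPL15B by −0.29 ± 0.14 between the antifoams.

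RPL9 had the widest gap in share between Ind_Z and Ind_B. RPL9A had 21.2, 23 and 28.8% in the controls, 22.1, 19.6 and 22.8% in Ind_B and 36.2, 46.2 and 41.4% in Ind_Z of the counts of the pair (exact permutation p = 0.0143, adjusted p = 0.0974). RPL9B was at 309.8, 289.8 and 492 CPM in the controls, 279.7, 316 and 224 CPM in Ind_B and 395, 376 and 417 CPM in Ind_Z and changed by 0.54 ± 0.21 between the antifoams. RPL22A had 29.2, 34.9 and 46.7% in the controls, 35, 26.3 and 35.5% in Ind_B and 47.7, 48 and 44.7% in Ind_Z of its pair, with Ind_B replicate 2 lowest and control13 among the Ind_Z values (exact permutation p = 0.121).

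**Figure D5:**
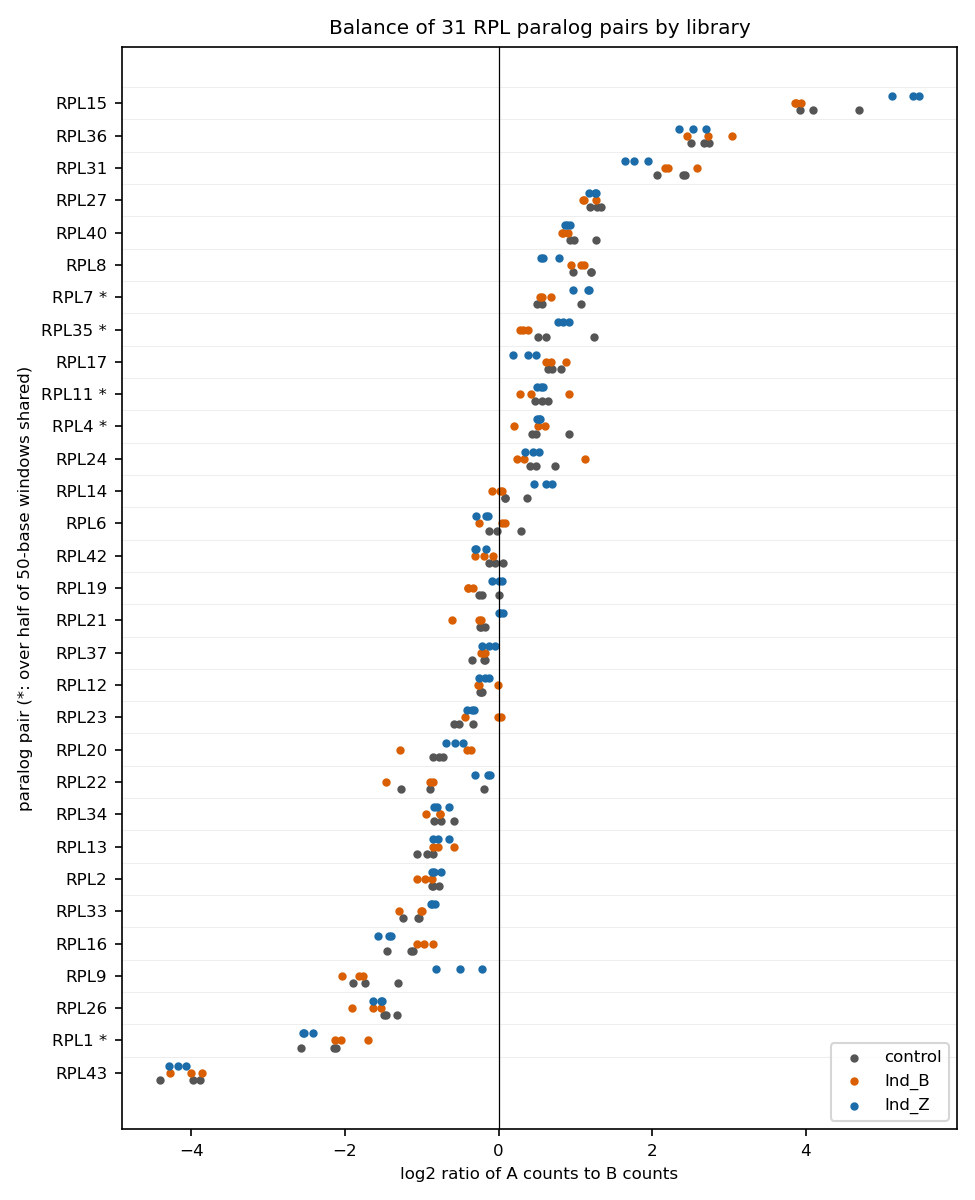
Log2 ratio of the counts of the A copy to those of the B copy for 31 RPL pairs, 1 point per library, coloured by group (asterisks mark pairs in which more than 50% of 50-base windows are shared). RPL15 and RPL43 lie at the extremes, and the Ind_Z points lie to the right of the others in RPL9, RPL14 and RPL15.

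Other genes of the ribosome were read from lists chosen with earlier results of these data known. The 56 small-subunit protein genes had a median of 0.96 for Ind_Z against Ind_B, with 51 showing all 3 Ind_Z libraries above all 3 Ind_B libraries (21.4% of all genes) and 1 called higher (0.358% of all genes). Against control their medians were 0.35 with Ind_Z (0 called) and −0.60 with Ind_B (0 called), or 0.79 (50 rose, where 13.1% of all genes did) and −0.20 (0 called) without control13. The 5 acidic stalk genes, which complete the large subunit, had medians of 1.29 between the antifoams, 0.02 with Ind_Z and −1.03 with Ind_B against control, with 0 called in each. All 5 had every Ind_Z library above every Ind_B library. Without control13 the medians against control were 0.88 with Ind_Z (4 rose, beside the same 13.1%) and −0.22 with Ind_B (0 called).

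The genes that build the subunit did not share this pattern of medians. The 44 large-subunit maturation and export factors had a median of 0.00 between the antifoams (lowest −0.52, highest 0.32), with 5 having all 3 Ind_Z libraries higher (21.4% of all genes) and 6 lower (21.5%). The 9 dedicated chaperones and loaders of large-subunit proteins had a median of 0.03 and the 15 RNA polymerase I genes −0.02. The 34 mitochondrial large-subunit protein genes had −0.17. The 20 regulators of ribosomal protein genes had 0.02, with 10 above 0. Among them CRF1, the corepressor of the regulon, had the lowest p at −0.61 ± 0.16 (edgeR adjusted p = 0.0767). Next in order of p were GCR1 at 0.45 ± 0.12 (adjusted p = 0.0802), MRS6 at 0.30 ± 0.13 (0.192) and FHL1 at −0.30 ± 0.18 (0.309). In these 5 lists 0 members were called in any of the 3 comparisons with all 9 libraries in the fit. Without control13, Ind_Z against control had 2 higher and 3 lower among the maturation factors, 1 higher and 1 lower among the regulators, 1 higher in the polymerase and 1 lower in the mitochondrial list, where 13.1% of all genes were called higher and 6.54% lower. Ind_Z against Ind_B then had 1 higher and 2 lower among the maturation factors, 1 higher and 2 lower among the regulators, 3 higher in the polymerase and 1 lower in the mitochondrial list (14.2% of all genes higher and 9.31% lower). A difference between these lists and the RPL genes was not tested. The 5 genes of ribosome preservation and turnover had a median of 0.05 between the antifoams with 0 called, from −0.28 for BRE5 to 1.27 ± 0.31 for STM1, which clamps idle ribosomes (edgeR adjusted p = 0.072).

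With all genes named RPL, RPS or RPP left out, 5513 genes averaged 50 counts or more, and the 5 of them whose log2 CPM followed the mean RPL profile most closely over the 9 libraries were URA5 (Pearson r = 0.994), TIF2 (0.987), YEF3 (0.984), SOL3 (0.981) and PYP1 (0.981). These values describe 9 libraries in 3 groups that share depth and scaling. Of the RPL genes themselves, 71 of 74 had a Pearson r of 0.885 or more with the profile, and RPL15B (−0.29), RPL28 (0.73) and RPL22B (0.86) were the least like it.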

How the data were processed

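Reads per annotated feature were counted by the authors and deposited as 1 table of raw counts, with 6357 rows and 9 columns. Tools named in the submitters' processing notes, with no roles, are TopHat2 (2.0.9) and HTSeq (0.6.0). Per the labels' protocols, TruSeq libraries were built from total RNA depleted of rRNA by enzyme. Build, annotation and strandedness: not given in the sources used here. R64 sequences and positions describe the reference and not the authors' build. The control12 and control13 columns match the controls by name but carry no replicate number of their own. Row names matched R64 for 5783 rows by locus tag and 65 by symbol.

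Counts were fitted with edgeR 4.0.16 in R 4.3.3: filterByExpr, TMM, 1 mean per group over 9 libraries (6 residual degrees of freedom) and the quasi-likelihood F-test with Benjamini-Hochberg adjustment. Standard errors come from the F statistic. Pair ratios used a prior count of 2. Alternatives were DESeq2 1.42.0, RLE and upper-quartile factors, TMM without ribosomal protein rows, no filter, a mean count of at least 50, 6-library fits, a replicate block and leaving out each library. Scripts were tested on simulated data. Named genes were those called, the 3 highest and lowest per comparison and level, the single-copy genes and, of the pairs, the 5 most and least equal and those of lowest p. RPL7A, RPL11B and others listed because their groups did not overlap, RPL9 and RPL22 as pairs, RPL25, RPL35, RPL43 the shorter of 2 motif forms and the sequences shown were chosen after values were seen. The values of 1 gene and of its pair are not reported here, though they enter the fits and counts. The members and lists were chosen with earlier results of these data known.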

Additional observations from a re-analysis of the deposited data

How the results depend on the processing

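Single libraries decided the counts of calls. Leaving out 1 library, calls over all genes ran from 0 to 332 for Ind_B against control, from 16 to 1213 for Ind_Z against control and from 0 to 1453 for Ind_Z against Ind_B. Called RPL genes ran from 0 to 2, from 0 to 69 and from 0 to 73, and the RPL medians from −0.74 to −0.20, from 0.24 to 0.80 and from 0.94 to 1.11. For Ind_Z, the most RPL calls in both comparisons and the highest median against control came without control13. Without control12, Ind_B against control had 2 of 74 RPL genes lower (RPL22B and RPL26A), where 159 of all 6149 genes tested were called lower. RPL pairs called ran from 0 to 7, with 7 without control13. The mean RPL share of counts ran from 1.56% to 1.87% in control, 1.36% to 1.52% in Ind_B and 2.4% to 2.53% in Ind_Z. Without mitochondrially encoded rows and the 20 most abundant rows it was 2.6%, 2.05% and 3.44%.

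DESeq2 called 302, 447 and 631 genes in the 3 comparisons in that order, of which 2, 5 and 63 were RPL genes. Fits on the 6 libraries of a comparison called 1, 59 and 1251 genes, of which 0, 1 and 73 were RPL genes. Upper-quartile factors gave 19 calls for Ind_B against control. A mean count of at least 50 gave 14 calls for Ind_Z against Ind_B with 1 RPL gene, RPL28. The other scalings and filters left every count of calls within 1.5 times and every RPL median on its side of 0. The antifoam libraries share replicate numbers only: the deviations of same-numbered libraries correlated at −0.0229, −0.238 and −0.442, and no library correlated best with its own number. A fit with these numbers as a replicate block called 572 genes and 69 RPL genes for Ind_Z against Ind_B. The cause of these differences was not tested.

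Directions near 0 turned when 1 library was left out. For Ind_B against control the log2 change ran from −0.30 to 0.12 for RPL10, −0.11 to 0.10 for RPL15B, −0.41 to 0.0221 for RPL23A, −0.20 to 0.0091 for RPL28 and −0.18 to 0.0525 for RPL35B. For Ind_Z against control it ran from −0.17 to 0.68 for RPL6A, −0.24 to 0.36 for RPL8A, −0.0179 to 0.41 for RPL9B, −0.0118 to 0.60 for RPL14B, −0.0261 to 0.46 for RPL18B and −0.10 to 0.17 for RPL22B. For Ind_Z against Ind_B no RPL gene changed direction under any alternative run. RPL28 was called there in 12 of 17 alternatives (adjusted p from 2.4e-07 to 0.221) and RPL9A in 10 of 17 (1.3e-06 to 0.241). RPL43A, at 33 counts or more per library, has the least depth of the 74 genes.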
